A study of Mus musculus with 6 samples.

Results

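The protein genes of the small subunit of the cytosolic ribosome were described in mouse platelets. They were taken as all rows whose symbol is Rps followed by a number, with or without a closing a, x or l, or is Rpsa, which gave 32 of 24346 symbols. Of these, 30 had a mean of at least 1 FPKM (fragments per transcript length, scaled by library depth) over the 6 libraries and entered the test. The symbol rule leaves out Rps3a1, Fau, Gnb2l1 and Rps27rt, which are given apart. RNA was sequenced from blood thrombocytes of mice with the genotype Beta3(R734C) homozygous KI, a knock-in of R734C in integrin β3 called Homo here, and of wild-type (WT) mice. Each genotype had 3 libraries, numbered 1 to 3 in the titles, and the labels name no further allele and no treatment. Strain, age and sex are not given in the labels, nor whether the libraries of a group came from separate animals, so p-values measure the spread between these libraries, which may be technical.

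The small subunit of the ribosome binds the mRNA, scans for the start codon and reads each codon against its tRNA, while the large subunit joins the amino acids. Its proteins sit on a ribosomal RNA core that is divided into a head and a body with a platform, and nearly every protein is present once per ribosome. Platelets have no nucleus, so their ribosomes and ribosomal protein mRNAs come from the megakaryocyte that shed them, and young platelets are richer in RNA than old ones. In total platelet RNA, more young platelets and more mRNA per platelet cannot be told apart.

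The libraries were of similar depth. The commonest ratio of low values put Homo libraries 1, 2 and 3 at 0.882, 1.002 and 1.05 times the depth of WT library 1, against 1.05 and 1.02 for WT libraries 2 and 3. A rough estimate from the commonest low value of genes with 1 annotated transcript was 7890000 to 9450000 fragments per Homo library and 8750000 to 9480000 per WT library. The platelet identity of the samples was checked on 12 markers, all of them above 1 FPKM on average, with the chemokine gene Pf4 highest at 20187 FPKM. Their sums overlapped, at 49927 to 55380 FPKM in Homo and 54406 to 56507 FPKM in WT libraries. Of the single markers 6 of the 12 lay wholly lower and 2 wholly higher in Homo, beside 15.8% and 14.9% of all tested genes. Pf4 had 20296, 23309 and 23135 FPKM in Homo, against 17469, 17761 and 19149 FPKM in WT libraries, without overlap and without passing (log2 fold change 0.29, limma adjusted p = 0.0774). Of the 12, 3 fell in limma (Tubb1, Gp1ba and Itgb3), beside 3.99% of all tested genes called lower. At an unadjusted p under 0.05, 6 were lower and 1 higher, beside 1234 of all 4859 tested genes in either direction. Scaled by the total FPKM, 5 of the 12 fell, with a median log2 fold change of -0.45, beside 484 of 4860 genes and a median of -0.23. With the total without haemoglobin 8 fell, beside 626 of 4863 genes. The part of these markers in the small-subunit results was not tested. Itgb3, the gene that carries the knock-in, averaged 859 FPKM in Homo and 1208 FPKM in WT. Gene-level FPKM cannot show the R734C change itself. Marker lists of neutrophils and B cells summed to 0.936 to 2.08 and 0.456 to 0.837 FPKM in Homo libraries, against 0.352 to 2.35 and 0 to 0.445 FPKM in WT libraries. The B cell sums did not overlap, although Ms4a1, Cd22 and Pax5 were listed at 0 throughout. T cell markers Cd3e, Cd3d and Cd4 were listed at 0 in all 6 libraries. The list of T and NK cells summed to 5.09 to 8.83 FPKM in Homo libraries and 2.67 to 4.46 FPKM in WT libraries, mostly from Nkg7, without overlap, and the part of either list in the small-subunit results was not tested. Monocyte and macrophage markers summed to 7205 to 9128 FPKM in Homo and 7035 to 8240 FPKM in WT libraries, nearly all of it Lyz2. The other 8 genes of that list averaged under 1 FPKM.

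Small-subunit mRNAs were more abundant in the mutant platelets. Their summed FPKM was 591, 618 and 627 in Homo libraries 1, 2 and 3, against 384, 359 and 391 in WT libraries 1, 2 and 3. All 3 Homo sums lay above all 3 WT sums. The mean was 612 ± 18.3 FPKM in Homo and 378 ± 16.7 FPKM in WT (SD, n = 3 each), a ratio of 1.62. It was between 1.56 and 1.65 under median-of-ratios and quantile scaling and under scaling by the total that leaves out erythroid genes and the 50 most abundant others. Without Rps29, the most abundant member, the sums averaged 479 ± 20.2 FPKM in Homo and 303 ± 11.5 FPKM in WT (SD, n = 3 each). The members made up 0.0769% ± 0.00688 of the total FPKM in Homo and 0.0570% ± 0.00337 in WT libraries (SD, n = 3 each), again without overlap, so that the ratio is 1.35 as a share of the whole total and 1.36 as a share of the total without haemoglobin. The total FPKM itself was also apart, at 758381 to 856863 in Homo and 641278 to 708432 in WT libraries, a ratio of 1.20. Whether the FPKM sums or the shares reflect the amount of small-subunit mRNA more closely was not tested. These sums are described without a test.

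Erythroid RNA varied widely between libraries and did not separate the genotypes. Haemoglobin genes took 20.4% of the total FPKM in Homo library 1 and at most 4.04% in Homo libraries 2 and 3, against 5.71% to 12.8% in WT libraries. In limma 0 of 13 tested erythroid markers passed, with 1 at an unadjusted p under 0.05. The list of 15 erythroid markers, of which 13 averaged at least 1 FPKM, summed to 24690 to 179969 FPKM in Homo and 37734 to 93433 FPKM in WT libraries. Without the library highest in haemoglobin in each group, the ratio of the small-subunit sums was 1.66.

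**Figure D1:**
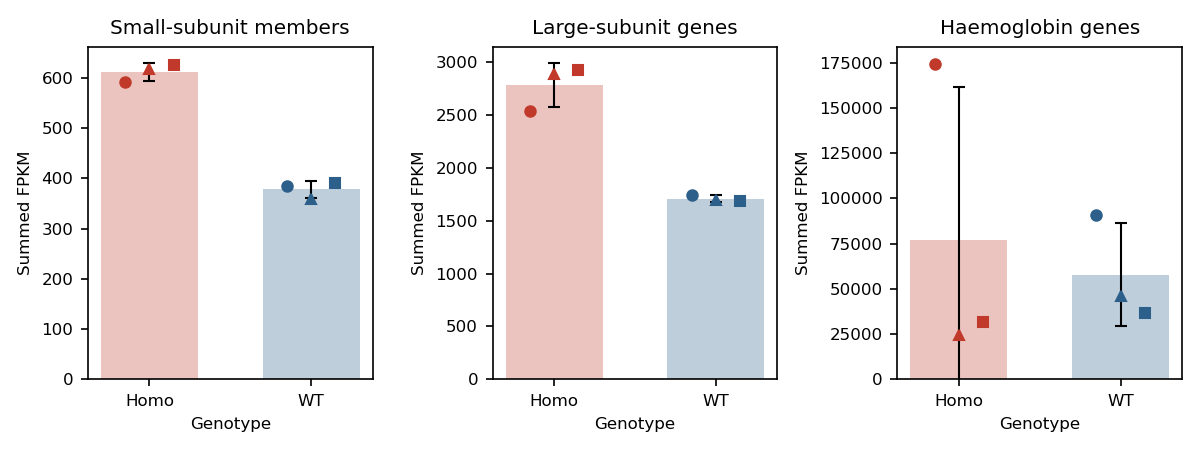
Summed FPKM per library of the small-subunit members, of the large-subunit ribosomal protein genes and of the haemoglobin genes, with circles, triangles and squares for libraries 1, 2 and 3, bars for group means and error lines for SD (n = 3 each, cut off at 0). Both ribosomal sums are higher in all 3 Homo libraries than in any WT library, while the haemoglobin sums overlap between the genotypes.

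Member by member, 8 of the 30 tested genes rose in Homo platelets and 0 fell (limma, Benjamini-Hochberg adjusted p under 0.05 over all 4859 genes tested). At an unadjusted p under 0.05 there were 17 higher and 0 lower, beside 1234 of all 4859 tested genes in either direction. Over all tested genes 8.36% were called, 4.36% as higher and 3.99% as lower in Homo. The risers are 26.7% of the tested members and include Rps29, Rps19, Rps12, Rps23, Rps18 and Rps28. The median log2 fold change of the 30 members, on the log2(FPKM + 1) scale used throughout, was 0.62, beside -0.01 over all tested genes. It was between 0.57 and 0.65 under median-of-ratios and quantile scaling and under scaling by the total without erythroid genes and the 50 most abundant others. Scaling by the whole total FPKM, added after the data were seen, moved the median of all genes to -0.23 and that of the members to 0.37. On that scale 3 members passed, Rps29 and Rps19 among them, and 0 fell, while 51 of all genes were called higher and 484 lower in Homo (212 and 194 without this scaling). With the total without haemoglobin 4 members passed, the median of all genes was -0.22 and that of the members 0.39, and 108 genes were called higher and 626 lower. Positive values were found for 27 of the 30, and 18 had Homo values that all lay above the WT values, while 0 had them all below. Over all tested genes 30.7% did not overlap, 14.9% with Homo higher and 15.8% with Homo lower. The member calls depended on single libraries and on the variance model. None passed limma without a variance trend (15 members at an unadjusted p under 0.05, beside 1197 of 4859 genes), where 0 genes passed. With no filter on low values Rps29 alone passed, among 107 of 12260 genes. Again none passed without Homo library 3 (14 members at an unadjusted p under 0.05, beside 994 of 4850 genes). The same held without WT library 2 (13 members, beside 947 of 4882 genes), and 1 passed without Homo library 2. The number of members was 4 without WT library 1 or WT library 3 and 10 without Homo library 1. The calls over all genes moved too, to 0 without Homo library 3, 41 without WT library 2 and 85 without Homo library 2. They were 326 without WT library 1, 113 without WT library 3 and 610 without Homo library 1. Leaving out the libraries in turn kept the median log2 fold change between 0.59 and 0.74.

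**Figure D2:**
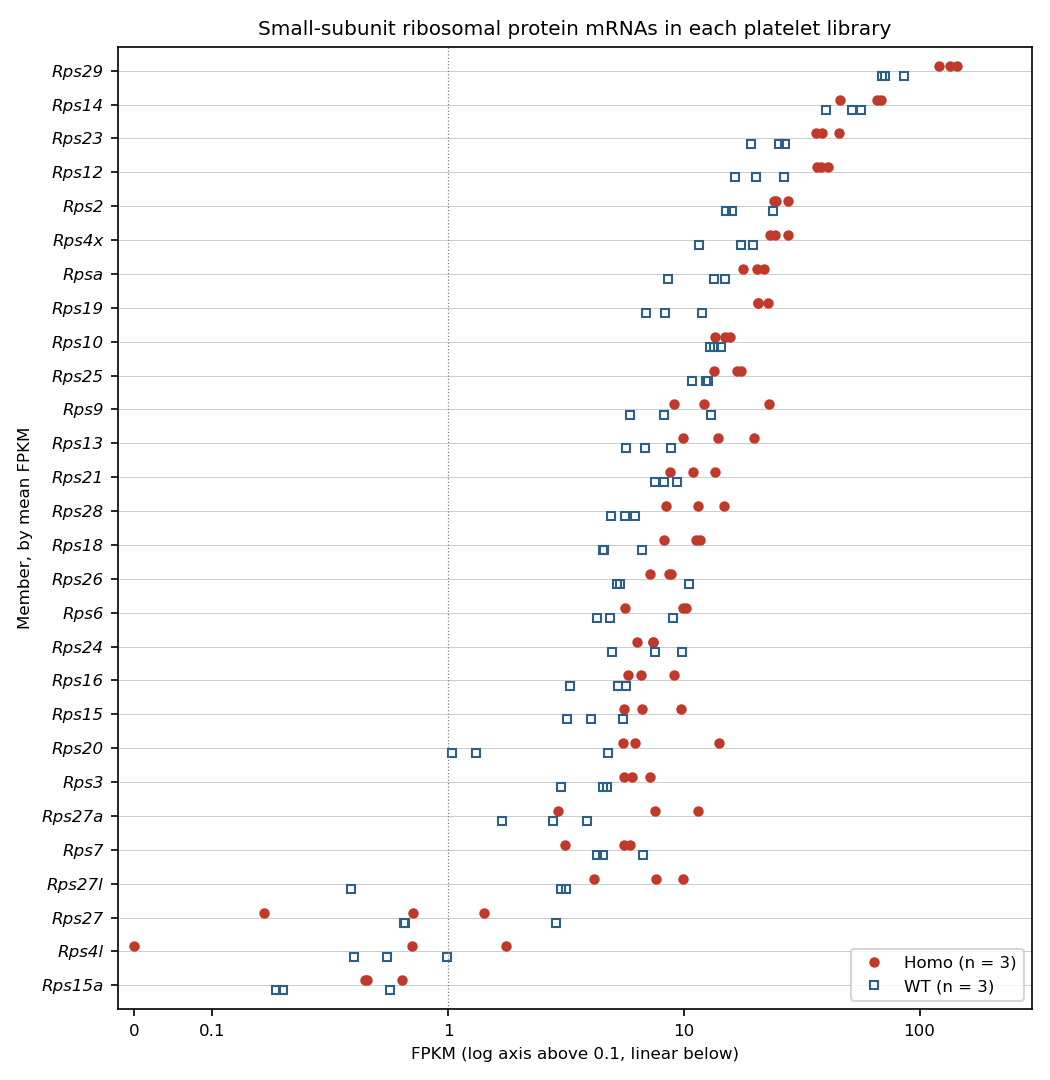
FPKM of 28 of the members in each library (filled red circles, Homo; open blue squares, WT; n = 3 each), ordered by mean FPKM, on an axis that is logarithmic above 0.1 and linear below. Rps29 is the most abundant gene in both genotypes, Rps15a is the least abundant in both, and Rps4l is listed at 0 in Homo library 3.

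Levels differed far more between members than between genotypes. The highest group mean was 259 times the lowest in Homo and 237 times in WT, although FPKM is already divided by transcript length. The lowest in both was Rps15a, whose values rest on about 1 to 2 fragments per library. Of the 50-base windows of its coding sequence 84.2% are found in other annotated genes, so its level is uncertain. The median member stood at 11.3 FPKM in Homo and 7.29 FPKM in WT, and 21 of the 32 exceeded the median tested gene, which averaged 6.66 FPKM. Rps29 ranked 551 of all symbols by mean FPKM and Rps15a ranked 6282. The 4 most abundant members, Rps29, Rps14, Rps23 and Rps12, gave 44.4% of the summed FPKM in Homo and 44.9% in WT. Replicates spread less at high levels. The median coefficient of variation was 9.23% in Homo and 19.2% in WT for the 7 members of at least 20 FPKM, 22.9% in Homo and 27.0% in WT for the 20 members of 5 to 20 FPKM, and 40.2% in Homo and 68.3% in WT for the 5 members under 5 FPKM. From the rough depth, the coding sequence of Rps29 was covered by about 105 to 228 fragments per library and that of Rps28 by about 9 to 29.

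Head proteins were tested in full, 14 of 14, and 6 of them rose while 0 fell, with a median log2 fold change of 0.84 (3 rose when scaled by the total FPKM, with a median of 0.58). Their summed FPKM was 302, 328 and 341 in Homo libraries, against 178, 172 and 197 in WT libraries. Rps29 encodes a small zinc-binding protein near the mRNA channel and is a Diamond-Blackfan anaemia gene in humans (chromosome 12, 69157722 to 69159186, minus strand, GRCm38). It measured 134, 121 and 144 FPKM in Homo libraries 1, 2 and 3, against 71.3, 69.2 and 86.1 FPKM in WT libraries 1, 2 and 3. The lowest Homo value exceeded the highest WT value. The rise was 1.75-fold (log2 fold change 0.81, SE 0.12; adjusted p = 0.0105 in limma). It was the most stable call, passing in 18 of 21 alternative settings that did not equalise the member sums, and was lost without Homo library 3 or WT library 2 and without a variance trend, with an adjusted p of at most 0.0651. The log2 fold change of Rps29 was less stable, from 0.53 with the length trend removed to 0.91 over these settings. It was 0.55 when scaled by the total FPKM.

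Rps19, the gene most often mutated in Diamond-Blackfan anaemia, encodes a head protein needed for maturation of the small-subunit RNA (chromosome 7, 24884371 to 24889806, plus strand). Its level was 20.7, 20.7 and 22.9 FPKM in Homo and 11.9, 8.31 and 6.92 FPKM in WT libraries. The Homo values were close together and the WT values spread more, without overlap. Its 2.27-fold rise was the largest among the risers (log2 fold change 1.19, SE 0.20, limma adjusted p = 0.0137). The call was lost without Homo library 2 or 3 or WT library 2 or 3 (largest adjusted p = 0.0688).

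Rps12 encodes a protein of the beak of the head (chromosome 10, 23785183 to 23787275, minus strand). It had 36.6, 41.1 and 38.1 FPKM in Homo libraries, against 26.7, 20.3 and 16.4 FPKM in WT libraries. Again every Homo value was higher (log2 fold change 0.86, SE 0.18, limma adjusted p = 0.0253). Exons of Rps12 overlap 3 annotated snoRNA genes on the same strand. The call was lost without Homo library 2 or 3 or WT library 2 or 3 and after removal of the length trend, with an adjusted p of at most 0.0980, and when scaled by the total FPKM with or without haemoglobin (limma adjusted p = 0.0637 and 0.0508).

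Rps18 and Rps28 passed narrowly. Rps18, whose protein contacts the large subunit from the head, had 11.7, 11.3 and 8.27 FPKM in Homo and 4.52, 4.59 and 6.64 FPKM in WT libraries (log2 fold change 0.87, SE 0.22, limma adjusted p = 0.0485). Rps28, for a small protein at the mRNA exit, had 8.37, 11.5 and 14.8 FPKM in Homo and 4.92, 6.22 and 5.63 FPKM in WT libraries (log2 fold change 0.90, SE 0.23, limma adjusted p = 0.0486). Neither gene overlapped between groups. Both calls were lost with a pseudocount of 5, after removal of the length trend and with scaling by the total FPKM, whether whole, without haemoglobin or without erythroid and the most abundant genes, and that of Rps28 with quantile scaling too. Leaving out any 1 library removed the Rps18 call (adjusted p up to 0.154), and each but Homo library 1 removed that of Rps28 (up to 0.153). Exons of both overlap a gene on the other strand, Vps52 for Rps18 and Kank3 for Rps28, and the library kit does not mark strand.

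Of the other 8 head genes none passed, and their log2 fold changes ran from 0.11 to 1.57. The largest estimate of any member belonged to Rps20, whose protein is ubiquitinated when ribosomes collide, with 5.50, 6.23 and 14.1 FPKM in Homo against 1.04, 1.31 and 4.75 FPKM in WT libraries. Homo library 3 and WT library 3 were the high ones of their groups, and the difference did not pass (log2 fold change 1.57, SE 0.46, limma adjusted p = 0.0738). It passed without Homo library 1 or without WT library 3. Rps27a encodes ubiquitin fused to a ribosomal protein, and its values of 2.92, 11.5 and 7.52 FPKM in Homo overlapped the 2.78, 1.69 and 3.89 FPKM of WT libraries (limma adjusted p = 0.174). It passed without Homo library 1, the one that overlapped. Rps3, Rps15, Rps16 and Rps25 had log2 fold changes of 0.38 to 0.65 at limma adjusted p-values of 0.167 to 0.254, and none of them overlapped between groups. At the other end, Rps10, another target of ubiquitin on collided ribosomes, had 14.9, 15.7 and 13.6 FPKM in Homo libraries, against 12.9, 14.3 and 13.4 FPKM in WT libraries. Its coefficient of variation in WT was 5.42%, and the 95% interval of its log2 fold change reached from -0.23 to 0.45 around 0.11 (limma adjusted p = 0.703). Scaled by the total FPKM the estimate was -0.14. Exons of Rps10 overlap RPS10-NUDT3, a protein-coding gene on the same strand. Of the 50-base windows of the Rps10 coding sequence 91.3% are found in that gene, so how fragments were divided between both is uncertain.

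Body and platform proteins included 2 risers and 0 falls among 15 tested of 16, with a median log2 fold change of 0.46. Neither riser passed when scaled by the total FPKM, with a median of 0.22, and 1 did with the total without haemoglobin. Their sums were 280, 279 and 281 FPKM in Homo and 201, 184 and 194 FPKM in WT libraries. The head to body ratio of summed FPKM was 1.08, 1.17 and 1.22 in Homo and 0.886, 0.937 and 1.01 in WT libraries, without overlap, and this difference was not tested. Exons of Rps2, Rps10, Rps25 and Rps27a overlap a gene on the other strand.

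Rps23 encodes the protein at the decoding centre, where codon and tRNA are matched (chromosome 13, 90922958 to 90924950, plus strand). Its values were 38.4, 45.6 and 36.3 FPKM in Homo and 25.3, 19.3 and 26.8 FPKM in WT libraries. The groups stood apart, with a 1.66-fold rise (log2 fold change 0.73, SE 0.17, limma adjusted p = 0.0325). It passed without Homo library 1 and not without any other single library (adjusted p up to 0.115), nor when scaled by the total FPKM with or without haemoglobin (limma adjusted p = 0.127 and 0.0779).

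Several abundant body genes stood higher in Homo without passing. Rps14, the second most abundant member and in humans the gene linked to the anaemia of the 5q deletion syndrome, had 68.3, 46.0 and 66.1 FPKM in Homo and 56.3, 51.7 and 40.2 FPKM in WT libraries. Homo library 2 lay below WT libraries 1 and 2, and the difference did not pass (log2 fold change 0.27, SE 0.19; adjusted p = 0.425 in limma). Its share of the small-subunit sum averaged 9.85% in Homo and 13.1% in WT. Rps2, at the mRNA entry, had 24.6, 27.6 and 24.1 FPKM in Homo and 16.0, 15.1 and 23.9 FPKM in WT libraries (log2 fold change 0.48, limma adjusted p = 0.163). Rps4x, an X-linked gene, had 24.3, 27.6 and 23.1 FPKM against 11.6, 19.7 and 17.5 FPKM in WT (limma adjusted p = 0.103). Neither Rps2 nor Rps4x overlapped between groups. Rps13 had 9.93, 19.9 and 14.0 FPKM in Homo and 6.84, 5.71 and 8.84 FPKM in WT libraries (log2 fold change 0.91, limma adjusted p = 0.0732), and Rpsa, also known as the laminin receptor gene, had 17.8, 20.5 and 21.8 FPKM in Homo and 8.59, 13.4 and 14.98 FPKM in WT libraries (0.69, limma adjusted p = 0.0865). Both were apart between groups without passing. Rps9, Rps21 and Rps26 overlapped, with log2 fold changes of 0.25 to 0.61 and limma adjusted p-values of 0.329 to 0.624. Rps6, whose protein is the target of S6 kinases, averaged 8.58 ± 2.56 FPKM in Homo and 6.05 ± 2.56 FPKM in WT (SD, n = 3 each; limma adjusted p = 0.408).

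Estimates below 0 were seen for 3 of the 30 tested members, Rps27, Rps7 and Rps24, all with overlapping groups. Rps24, another Diamond-Blackfan anaemia gene, had 7.43, 6.35 and 7.40 FPKM in Homo and 9.83, 7.58 and 4.97 FPKM in WT libraries. The WT range enclosed the Homo values, and the log2 fold change of -0.03 had a 95% interval from -0.59 to 0.53. Rps7, whose protein binds Mdm2, averaged 4.86 ± 1.52 FPKM in Homo and 5.17 ± 1.34 FPKM in WT (SD, n = 3 each; log2 fold change -0.09, limma adjusted p = 0.879). Among the 10 tested (of 11) Diamond-Blackfan anaemia genes of the small subunit, 3 rose (Rps19, Rps28 and Rps29) and 0 fell, with a median of 0.44. Rps28 did not pass when scaled by the total FPKM.

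**Figure D3:**
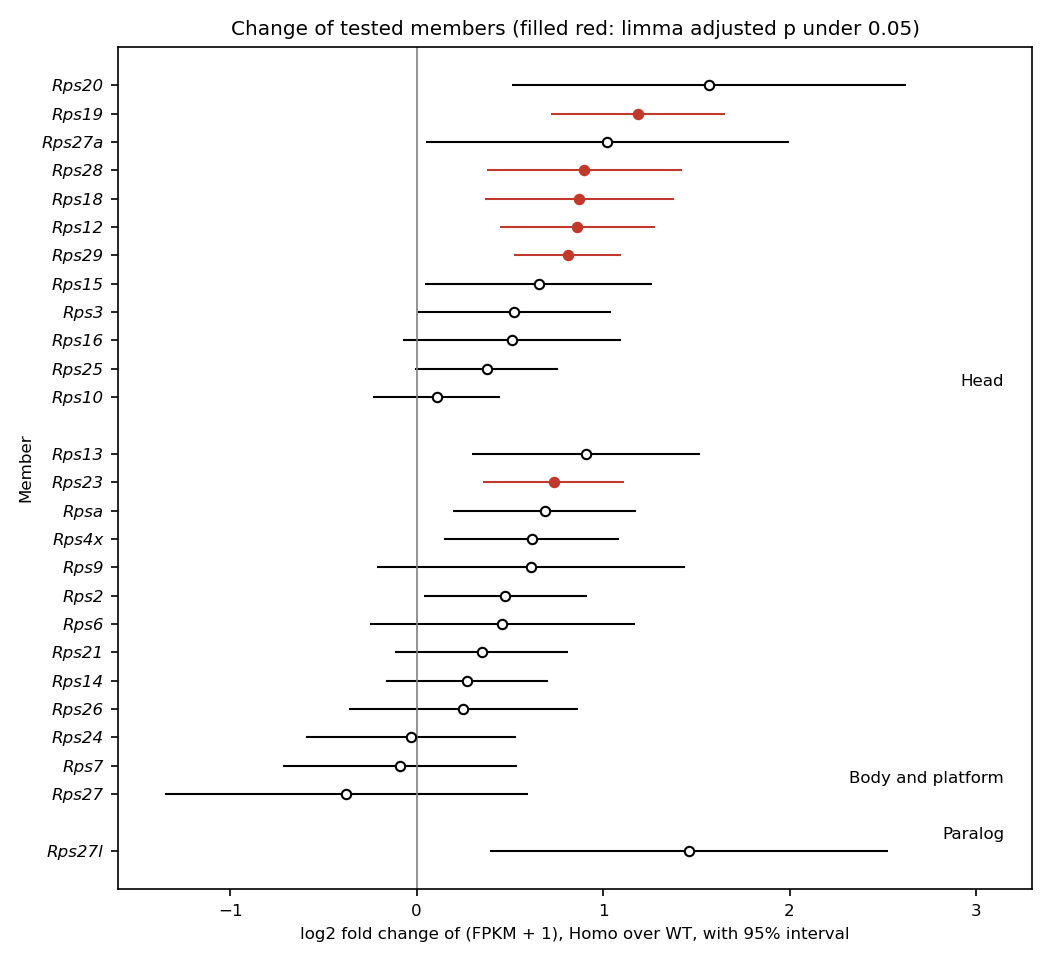
Log2 fold change of (FPKM + 1), Homo over WT, with its 95% interval for 26 of the tested members, grouped by place in the small subunit; filled red points passed limma at an adjusted p under 0.05 (n = 3 each). The 6 called genes drawn are all higher in Homo, and Rps27, Rps7 and Rps24 are the members with estimates below 0.

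The members were also compared on a scale on which their sum was the same in each library, which by construction puts their median near 0. The median of all genes then shifted to -0.59, with 13 genes called higher and 2088 lower in Homo (212 and 194 without the rescaling). The median of the members became -0.022. On that scale 1 of the 30 members passed, Rps10, which was lower relative to the sum in Homo (log2 fold change -0.54, SE 0.16, limma adjusted p = 0.0251). Its share of the sum averaged 2.41% ± 0.212 in Homo and 3.60% ± 0.346 in WT (SD, n = 3 each). The estimates were 0.54 for Rps19 (limma adjusted p = 0.0658), -0.64 for Rps24 (0.0752) and -0.66 for Rps7 (0.0785), none of which passed.

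Rps27 belongs to a family of 3 genes in which a pair share 1 coding sequence. Rps27 lies on chromosome 3 (90212522 to 90213651, minus strand) in 4 exons, Rps27rt is a copy in 1 exon on chromosome 9 (114982366 to 114982739, minus strand), and Rps27l is a paralog in 4 exons on chromosome 9 (66946086 to 66949516, plus strand). The coding sequences of 252 bases (stop codon not counted) are identical between Rps27 and Rps27rt, with 0 differing bases, and Rps27l differs from both at 60 bases (76.2% identity). The first 90 coding bases, from the GENCODE transcripts of GRCm38, are shown because fragments from identical stretches cannot be credited to 1 gene; capitals mark bases of Rps27rt or Rps27l that differ from Rps27, of which this stretch of Rps27l holds 24.
Rps27: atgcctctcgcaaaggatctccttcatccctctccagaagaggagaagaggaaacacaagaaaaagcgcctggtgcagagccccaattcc
Rps27rt: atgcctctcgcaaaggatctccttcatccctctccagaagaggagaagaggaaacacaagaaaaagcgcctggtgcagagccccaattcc
Rps27l: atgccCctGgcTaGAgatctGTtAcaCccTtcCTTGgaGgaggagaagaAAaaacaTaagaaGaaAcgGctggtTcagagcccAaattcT

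Rps27 itself was near the bottom, with 0.165, 0.711 and 1.42 FPKM in Homo and 2.86, 0.647 and 0.656 FPKM in WT libraries. These values stand for about 0 to 6 fragments per library, and the difference did not pass (log2 fold change -0.38, SE 0.43, limma adjusted p = 0.642). Rps27rt, which the symbol rule does not take and which was chosen after its values were seen, had 46.5, 46.1 and 41.2 FPKM in Homo and 24.1, 17.9 and 21.3 FPKM in WT libraries. It rose 2.08-fold (log2 fold change 1.06, SE 0.15, limma adjusted p = 0.00849). Rps27 held 0.354% to 3.32% of the summed FPKM of both genes in Homo libraries and 2.99% to 10.6% in WT libraries. Since their coding sequences are the same, how fragments were divided between them is uncertain. The sum of both genes averaged 45.4 ± 2.43 FPKM in Homo and 22.4 ± 4.24 FPKM in WT (SD, n = 3 each).

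Rps27l, known as a p53-induced gene, had 7.65, 9.90 and 4.14 FPKM in Homo and 3.17, 3.01 and 0.389 FPKM in WT libraries. The groups did not overlap, and WT library 3 was well below the other two. The log2 fold change of 1.46 had an SE of 0.47 and missed the threshold (limma adjusted p = 0.0925). Rps4l, annotated as a transcribed processed pseudogene, had 1.75, 0.702 and 0 FPKM in Homo and 0.985, 0.4002 and 0.551 FPKM in WT libraries, so that its groups overlapped and it was listed at 0 in 1 library. Rps15a, for a body protein, had 0.454, 0.442 and 0.640 FPKM in Homo and 0.569, 0.200 and 0.186 FPKM in WT libraries, about 1 to 2 fragments on its coding sequence. Neither Rps4l nor Rps15a reached the mean for testing.

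**Figure D4:**
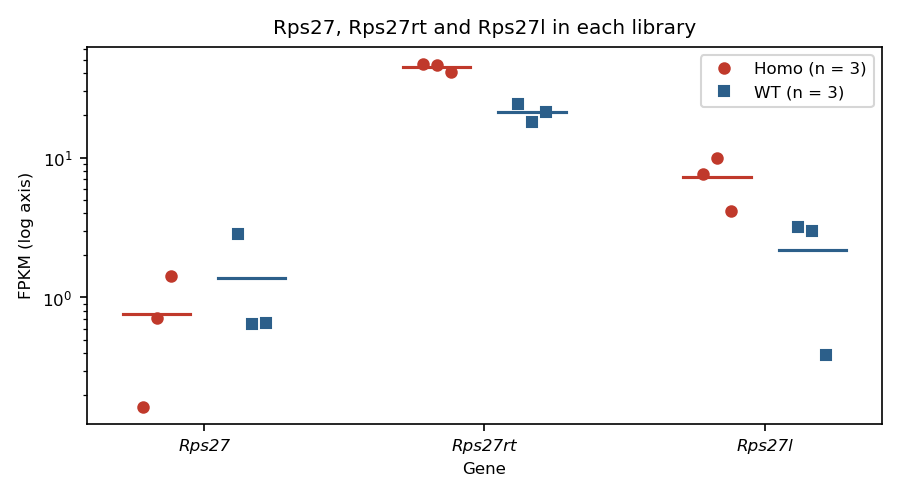
FPKM of Rps27, Rps27rt and Rps27l in each library on a logarithmic axis, Homo (red circles) left of WT (blue squares), with lines at the group means (n = 3 each). Rps27rt stands at 41.2 to 46.5 FPKM in Homo and 17.9 to 24.1 FPKM in WT, far above Rps27, whose coding sequence is the same.

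Near-identical copies are common among these genes, since ribosomal protein mRNAs have left many processed pseudogenes in mammalian genomes. Each coding sequence was cut into all windows of 50 bases, and those found in a transcript of another annotated gene on either strand were counted (for Rps4l the whole transcript was used). The median over the members was 88.9% of windows shared and 8 other genes with a match. Rps2 shared windows with 71 other genes, all pseudogenes. Rps3 shared 8.09% of its windows, with 1 other gene. Across the 32 members the shared percentage had a Spearman correlation of 0.12 with mean FPKM and of 0.05 with the ratio of Homo to WT means, as a description. Of the tested members 7 shared under 50% of their windows, among them Rps3, Rps9, Rps15, Rps21 and Rps27l. All 7 had positive log2 fold changes, with a median of 0.65, 2 passed and 5 had groups that did not overlap. The 23 tested members that shared at least 50% had a median of 0.62, with 6 that passed and 13 without overlap. How the authors' software divided fragments between copies is not given in the sources used here, so the levels of the second group are less certain.

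**Figure D5:**
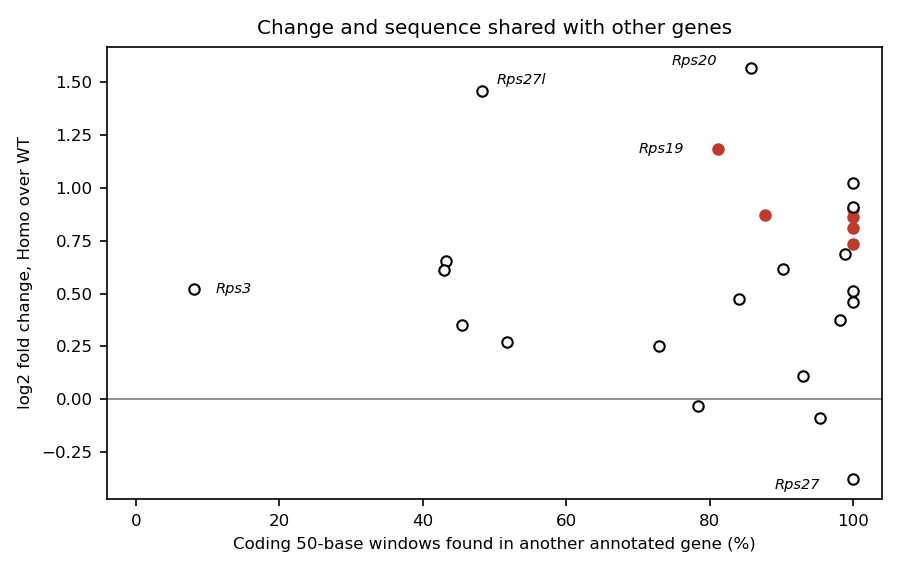
Log2 fold change of 26 of the tested members (Homo over WT) against the percentage of its 50-base coding windows found in another annotated gene; filled red points passed limma at an adjusted p under 0.05. The 6 called genes drawn lie between 81.1% and 100%, the 2 that shared under 50% are not drawn, and Rps27l, Rps20 and Rps3, which did not pass, lie at 48.3%, 85.7% and 8.09%.

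Ribosomal protein mRNAs typically begin with a 5′ tract of pyrimidines, through which their translation is controlled by mTOR signalling. A run of at least 8 consecutive letters that are C or T, on the strand of the gene and within 15 bases either side of an annotated start, was looked for in RefSeq promoters of GRCm38.p6, in which 23 of the 32 members had an entry. It was found in 9 of the 23 members (39.1%), against 13.9% of all 27025 genes with an entry and 15.5% of the tested genes with one. Of the 5 risers with an entry it was found in 1, Rps18, and of 17 tested members that did not pass in 7. Such a run can lie before the annotated start, outside the mRNA, as in Rps27l and Rps15a, and shorter tracts were not counted. These counts therefore do not measure the 5′ tract itself. Windows of 30 bases are shown with the run in capitals, for Rps18, which rose, and for Rps6, Rps10 and Rps24, which did not pass. Rps12, which rose, is shown as a member without the run inside its window. That window ends in 7 letters that are C or T, so whether the Rps12 run goes on beyond it was not looked at.
Rps18, chr17:33955651-33955680, minus strand: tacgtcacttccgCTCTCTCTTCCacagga
Rps6, chr4:86857353-86857382, minus strand: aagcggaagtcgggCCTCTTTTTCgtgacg
Rps10, chr17:27635230-27635259, minus strand: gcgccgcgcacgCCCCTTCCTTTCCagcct
Rps24, chr14:24490663-24490692, plus strand: cccgcgctggggTCCTTCCTTgcgcgttga
Rps12, chr10:23787195-23787224, minus strand: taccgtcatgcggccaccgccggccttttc
The Rps10 run of 13 letters was the longest among members. Among the members with no entry were Rps29, Rps14, Rps20, Rps27a and Rps4l.

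Small-subunit proteins whose symbols fall outside the rule also had positive estimates. Rps3a1, for a body protein, had 24.5, 29.7 and 32.9 FPKM in Homo and 19.6, 17.4 and 17.2 FPKM in WT libraries and rose (log2 fold change 0.65, SE 0.15, limma adjusted p = 0.0392), but did not pass when scaled by the total FPKM (limma adjusted p = 0.203). Fau, which encodes a ubiquitin-like protein fused to a ribosomal protein, had 93.2, 128 and 128 FPKM in Homo and 66.9, 73.5 and 95.5 FPKM in WT libraries, which overlapped, and did not pass (limma adjusted p = 0.0853). Gnb2l1, which encodes the scaffold RACK1 of the head, averaged 4.18 ± 0.780 FPKM in Homo and 2.32 ± 1.31 FPKM in WT (SD, n = 3 each; limma adjusted p = 0.211).

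The ratio of large-subunit to small-subunit sums was 4.30, 4.67 and 4.67 in Homo and 4.54, 4.73 and 4.32 in WT libraries, with overlapping groups. Of 44 tested large-subunit genes 10 rose and 0 fell, with a median log2 fold change of 0.54. Those numbers stand beside 8 of 30 and 0.62 for the small subunit. Scaled by the total FPKM, 5 of the 44 rose, with a median of 0.31, beside 3 of 30 and 0.37. Mitochondrial small-subunit genes, which build another ribosome, had 0 calls in limma among 11 tested. At an unadjusted p under 0.05, 3 were higher, beside 1234 of all 4859 tested genes in either direction. Positive estimates were found for 8 of the 11, with a median of 0.30. Scaled by the total FPKM, 6 of the 11 were positive, with a median of 0.04 and 0 calls.

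Of 65 listed factors that build the small subunit 13 were tested, with 0 calls in limma (1 lower at an unadjusted p under 0.05) and a median log2 fold change of 0.07. The most abundant was Riok3, a kinase gene of small-subunit maturation, at 136 ± 34.5 FPKM in Homo and 160 ± 5.60 FPKM in WT (SD, n = 3 each; limma adjusted p = 0.371). Among 24 tested genes of initiation factor 3 and the preinitiation complex, which load the small subunit on mRNA, 2 rose and 0 fell, with a median of 0.21. They were Eif1, a start codon selection factor, at 3553 ± 317 FPKM in Homo and 2250 ± 118 FPKM in WT (SD, n = 3 each; log2 fold change 0.66, limma adjusted p = 0.00849), and its paralog Eif1b (0.87, limma adjusted p = 0.0153). The S6 kinase and mTORC1 list, which signals to the small-subunit protein of Rps6, had 1 riser and 0 falls among 14 tested and a median of 0.02. The riser was Lamtor5, a lysosomal anchor of mTORC1 (log2 fold change 0.56, limma adjusted p = 0.0324), and the most abundant, the translation repressor gene Eif4ebp1, averaged 496 ± 68.0 FPKM in Homo and 378 ± 30.1 FPKM in WT (SD, n = 3 each; limma adjusted p = 0.0843). Elongation factors (7 tested, median 0.16) and ribosome rescue and quality control genes (9 tested, median -0.13) had 0 calls in limma, with 1 higher and 1 lower at an unadjusted p under 0.05. Eef1a1, which brings tRNAs to the ribosome, had 114, 145 and 144 FPKM in Homo and 118, 114 and 127 FPKM in WT libraries, and Rnf10, for a ubiquitin ligase of small-subunit proteins, averaged 208 ± 105 FPKM in Homo and 186 ± 25.3 FPKM in WT (SD, n = 3 each). Scaled by the total FPKM, the calls of Eif1, Eif1b and Lamtor5 were lost (limma adjusted p = 0.0908, 0.0515 and 0.227). With the total without haemoglobin Eif1 and Eif1b passed (limma adjusted p = 0.00809 and 0.0267) and Lamtor5 did not (0.104). On the scale of the whole total FPKM 1 assembly factor, 2 genes of the mTORC1 list and 1 rescue gene were called lower, beside 484 of 4860 genes. The medians then were -0.11 for the assembly factors, -0.0023 for initiation, -0.16 for the mTORC1 list, -0.102 for elongation and -0.39 for rescue genes, beside -0.23 over all genes.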

How the data were processed

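RNA of 3 Homo and 3 WT platelet libraries was analysed. TRIzol and miRNeasy Micro extraction was followed by SMART-Seq HT cDNA and Nextera XT libraries, which do not mark strand, per the labels' protocols. The authors deposited a table of FPKM by symbol for each library. Cuffdiff 2.2.1, SAMtools 0.1.18, TopHat2 2.1.1 and Bowtie2 2.2.8 are named with build mm10 (GRCm38), per the submitters' processing notes. Their settings and annotation are not given in the sources used here. Read counts were not analysed here, and a value of 0 can be a failed estimate.

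Genes with a mean of at least 1 FPKM were tested, 4859 of 12260 above 0 in any library, on the scale log2(FPKM + 1) by limma 3.58.1 (R 4.3.3), two-sided. The model held group alone with a variance trend, and p was adjusted by Benjamini-Hochberg over all tested genes, with calls at 0.05. Fold changes are Homo over WT on that scale, which understates changes of low values. The code was tested on simulated data of 4859 genes, with independent noise whose SD was set by mean level alone. There it recovered 48% of 1.5-fold, 64% of 2-fold, 100% of 3-fold and 96% of 4-fold changes. Library effects and gene-specific spread were not simulated, so recovery in the real data may be lower. A member that did not pass is thus not shown to be unchanged. The members and gene lists were chosen with earlier results of these data known. Members that passed, the 6 most and 5 least abundant, those listed at 0 and the paralogs are given by library, except for some members that are counted in the totals but not reported here by name; of other lists, counts, the median, called genes and the most abundant gene. Other members given by library, and Rps27rt and Gnb2l1, were chosen after their values were seen. Gene positions and transcripts are from GENCODE M21 on GRCm38. Any pair of libraries shared at most 1 identical value above 0. Alternatives to the scaling, filters, pseudocount and model were run, and each library was left out in turn; scaling by the total FPKM was added after the data were seen. One alternative removed the trend of fold change with transcript length.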

Additional observations from a re-analysis of the deposited data

How the results depend on the processing

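With an FPKM minimum of 5, pseudocounts of 0.1 and 5, a robust variance estimate, sample weights and scaling by median of ratios, by quantiles or by the total without erythroid genes and the 50 most abundant others, between 6 and 9 members were called and 0 as lower. Over all tested genes the calls in these settings numbered from 358 with quantile scaling to 603 with sample weights, beside 406 in the main setting. With the FPKM minimum of 5, 8 of 27 members were called, beside 511 of 2750 genes. With no filter on low values 107 genes and 1 member passed. Without a variance trend limma called 0 genes and 0 members (15 members at an unadjusted p under 0.05). Removal of the length trend left 4 members and 361 genes, and the cause of the trend was not tested. With the replicate block 7 members and 306 genes passed, 5 of the 7 among the 8 above, with Rps20 and Rps27l added. Deviations from the group means correlated by 0.158, 0.0235 and 0.141 between same-numbered libraries. Homo libraries 1 and 3 correlated best with the WT library of the same number, and Homo library 2 with WT library 3 (0.0674). The titles do not say that the numbers pair libraries, so these were not taken as pairs. Whether a shared number stands for a shared batch cannot be told from these values. Without the library highest in haemoglobin of each group 728 genes and 9 members passed. Scaling by the total FPKM, whole and without haemoglobin, was added after the data were seen. It gave 3 and 4 members, 535 and 734 genes and ratios of sums of 1.35 and 1.36, and Rps10 turned negative (-0.14 and -0.12). Leaving out 1 library gave 0 to 610 genes, 0 to 10 members and a ratio of sums of 1.58 to 1.65.

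With equal summed members, which by construction removes the shared shift, 2101 genes and 1 member passed and estimates turned negative: -0.54 for Rps10, -0.41 for Rps14, -0.078 for Rps16, -0.19 for Rps2, -0.28 for Rps21, -0.27 for Rps25, -0.36 for Rps26, -0.052 for Rps3, -0.044 for Rps4x, -0.14 for Rps6, -0.0203 for Rps9 and -0.022 for the members' median. Rps24 turned positive with sample weights (0.0197), without Homo library 2 (0.034), WT library 1 (0.17) or WT library 2 (0.00039) and without both libraries highest in haemoglobin (0.13), and ran from -0.26 to 0.17 over libraries left out in turn. Rps7 did so without Homo library 3 (0.15) or WT library 3 (0.081), in a range from -0.22 to 0.15. None of these passed other than Rps10.

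Of the 3 tested members under 5 FPKM 0 passed in limma, with a median SE of 0.43, beside 4 of 7 at 20 FPKM or more, with 0.18, and the part of depth was not tested.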
